A study of Homo sapiens with 6 samples.

Results

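The genes described here code for receptor tyrosine kinases of the ERBB, MET, insulin/IGF and TAM families, with the adaptor IRS1, in AN3-CA cells given a ligand of the FGF receptors with or without an inhibitor of their kinases. They are EGFR, ERBB2, ERBB3, ERBB4, MET, IGF1R, INSR, IRS1, MERTK and AXL, 10 of the 19040 genes on the array. All probe sets annotated with exactly 1 of these symbols were taken, 43 of 49293. AN3-CA is a human endometrial cancer line, and 6 arrays of its total RNA were used, 2 for each of 3 groups. After 24 h of culture the cells were kept for 18 h in serum-free medium, which all groups share. The control group received DMSO without growth factor. The second group received DMSO and 10 ng/mL of acidic FGF (aFGF, also FGF1), a ligand of the FGF receptors, and the third received 300 nM AZD4547, an inhibitor of the FGF receptor kinases, with the same dose of aFGF. No group received AZD4547 without aFGF, so the inhibitor was measured only in stimulated cells. The study used a single cell line, and the labels call the 2 samples of a group biological replicates, so p-values measure the spread between dishes of this line.

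A receptor tyrosine kinase binds a ligand outside the cell, pairs with another receptor and phosphorylates tyrosines on its tail, which recruit adaptors that lead to RAS and ERK and to PI3K and AKT. EGFR, ERBB2, ERBB3 and ERBB4 pair with each other: ERBB2 has no known soluble ligand, and ERBB3 has a weak kinase and recruits PI3K through its partners. MET binds HGF, INSR and IGF1R signal through IRS1, and MERTK and AXL are TAM receptors bound by GAS6 and, for MERTK, by protein S (PROS1). These receptors feed the same downstream pathways as the FGF receptors and are known as bypass routes in cells treated with kinase inhibitors. Transcript levels, which are what the arrays measured, do not report receptor protein or its phosphorylation.

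Of the 10 genes, MERTK was higher with aFGF and lower again when AZD4547 was added, and ERBB3 was lower with aFGF and higher when AZD4547 was added. EGFR was higher with AZD4547 and aFGF than with aFGF alone on 3 of its 8 probe sets. ERBB2, ERBB4, MET, IGF1R, INSR, IRS1 and AXL had no probe set that passed the test in any comparison.

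The DNA before the start of 3 of these genes is printed to set a receptor whose transcript followed aFGF beside EGFR, of which 3 probe sets passed the test, and ERBB2, of which none did. The sequences are RefSeq's 250 bases upstream of the gene start, from a table of build GRCh38.p14 that holds 9 of the 10 genes. Capitals mark matches, on either strand, to motifs of factors downstream of receptor kinases.
MERTK promoter: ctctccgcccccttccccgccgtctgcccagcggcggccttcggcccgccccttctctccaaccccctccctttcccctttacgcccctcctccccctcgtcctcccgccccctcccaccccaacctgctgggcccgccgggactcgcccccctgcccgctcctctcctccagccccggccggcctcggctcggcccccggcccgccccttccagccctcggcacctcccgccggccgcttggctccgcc
EGFR promoter: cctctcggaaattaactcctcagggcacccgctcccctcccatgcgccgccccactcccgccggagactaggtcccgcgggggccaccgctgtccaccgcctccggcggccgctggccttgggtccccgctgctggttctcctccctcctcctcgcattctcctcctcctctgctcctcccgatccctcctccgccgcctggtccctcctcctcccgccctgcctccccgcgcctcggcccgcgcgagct
ERBB2 promoter: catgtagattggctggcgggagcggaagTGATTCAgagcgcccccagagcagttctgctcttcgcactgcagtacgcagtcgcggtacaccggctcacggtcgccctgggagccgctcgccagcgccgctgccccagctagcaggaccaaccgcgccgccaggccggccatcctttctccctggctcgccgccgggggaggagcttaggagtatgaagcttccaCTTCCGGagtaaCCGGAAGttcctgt
The stretches lie on the plus strand at chr2:111898357-111898606 for MERTK, chr7:55018767-55019016 for EGFR and chr17:39687844-39688093 for ERBB2. The motifs searched were GTAAACA for FOXO factors, TGANTCA for AP-1, GCGNGGGCG for EGR factors, CCGGAAG for ETS factors and CACGTG for E-box factors. These were found in 2.98%, 6.57%, 8.41%, 8.52% and 6.34% of the 35116 RefSeq promoters of the same length. The ERBB2 stretch held an AP-1 match 222 to 216 bases upstream of the start and ETS matches at 26 to 20 and at 14 to 8 bases, and the IRS1 stretch held 1 EGR match. The MERTK and EGFR stretches, and those of ERBB4, MET, IGF1R, INSR and AXL, held none of these letters. A match is a description of the sequence and not a bound site.

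The deposited intensities had been normalized by RMA, and levels are given as log2 intensity, without a probe-level detection call. Array medians lay between 2.84 and 2.89, and a probe set below them is called dim, since it is not shown to be above background. Of the 43 probe sets, 13 lay above the median of every array (5 of EGFR, 3 of ERBB2, 4 of INSR and that of MERTK) and 28 lay below it on all 6. Every probe set of ERBB4 (3), MET (6), IGF1R (7), IRS1 (3) and AXL (2) was dim on all arrays. Replicate arrays correlated at r = 0.9966 (DMSO), 0.9973 (aFGF) and 0.9973 (AZD4547 with aFGF) across probe sets, which describes the arrays only. Of the markers of the Müllerian lineage, from which the endometrium derives, 5 of 8 were above the median on all arrays (ESR1, HOXA10, HOXA11, MSX1 and EMX2). Of the epithelial markers 3 of 8 were (KRT18, MUC1 and CLDN4), while EPCAM and CDH1 were dim on every array. TAM receptors are also genes of macrophages. None of 8 leukocyte and macrophage markers was above the median on all arrays, with a summed linear intensity of 21.7 to 25.2, and none of 7 endothelial markers was, with 27.3 to 33.2. Of 8 fibroblast markers, COL1A2 alone was above the median on all arrays. Their sum ranged from 734 to 926, and most of it was COL1A2, at log2 9.47 to 9.81. COL1A1, DCN, LUM, PDGFRB, POSTN and FAP were dim on all arrays.

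Group means were fitted to all 49293 probe sets with limma, and calls were made in each comparison where the Benjamini-Hochberg p stayed below 0.05. With aFGF against DMSO, 2 of the 43 probe sets were called, against 11.4% of all probe sets. Of these 1 was higher, as were 5.01% of all, and 1 was lower, as were 6.43%. With AZD4547 and aFGF against aFGF, 5 of 43 were called, against 20.6% of all. Of these 4 were higher (11.8% of all) and 1 was lower (8.84%). The shares of these receptors' probe sets were below those of all probe sets in each comparison. With AZD4547 and aFGF against DMSO limma called 0 of 43, against 2.49% of all, and 4 of 43 had an unadjusted p under 0.05. The share of all probe sets under that unadjusted level was not taken, so these 4 cannot be set against it. Dim probe sets are called less often: 1.81% of all probe sets below the median level passed with aFGF and 21.1% of those above it, and among these genes 1 of 29 and 1 of 14 did. For AZD4547 with aFGF against aFGF these shares were 4.26% and 37.0%, and among these genes 1 of 29 and 4 of 14. The first and second comparisons share the aFGF arrays, so opposite signs in them are not independent, and every other pair of comparisons shares a group too. The arrays of the compared groups did not overlap for 19 of the 43 probe sets with aFGF against DMSO (48% of all probe sets) and for 19 with AZD4547 and aFGF against aFGF (57.7%).

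With each gene represented by its brightest probe set, 2 of 10 genes were called with aFGF against DMSO (13.6% of all genes), MERTK upward (5.13% of all) and ERBB3 downward (8.42%). With AZD4547 and aFGF against aFGF 3 of 10 were called (23.9%), ERBB3 and EGFR upward (14.6%) and MERTK downward (9.39%). With AZD4547 and aFGF against DMSO 0 of 10 were called (3.18%). In the third comparison 1 of the 10 had an unadjusted p under 0.05, for which the share of all genes was not taken either. The median log2 fold change of the 43 probe sets was -0.05 with aFGF, 0.05 with AZD4547 and aFGF against aFGF and -0.02 against DMSO. Over all probe sets these medians were 0.00, -0.02 and -0.01.

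**Figure D1:**
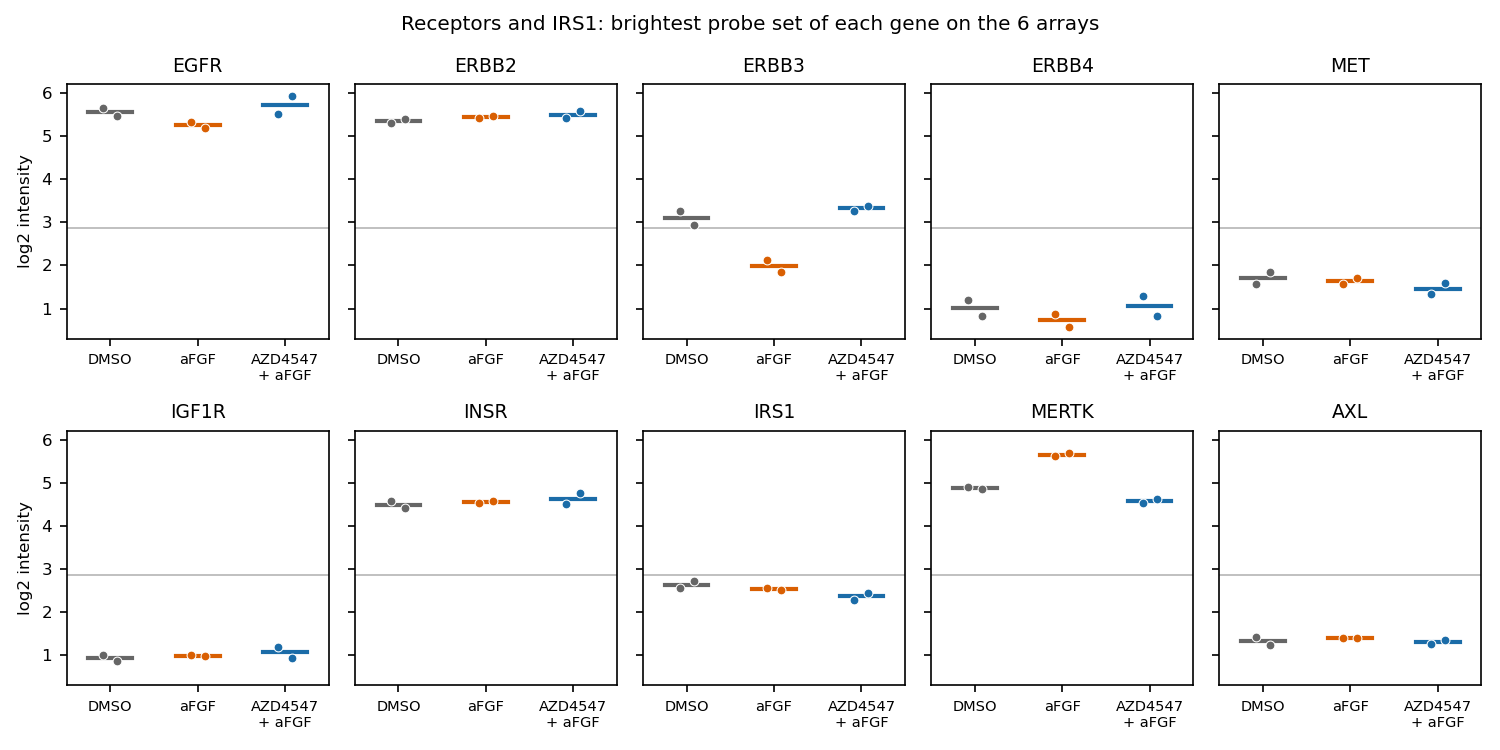
Log2 intensity (vertical axis) of the brightest probe set of each of the 10 genes on the 2 arrays of each group, with points for arrays, short lines for group means and a grey band for the array medians. MERTK is highest and ERBB3 lowest in the aFGF group, with no overlap with the other groups, and the vertical scale is shared.

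MERTK (deposited cytoband 2q14.1), a receptor that drives the uptake of dead cells in phagocytes, has 1 probe set, 11724931_a_at. Its log2 intensity was 4.89 and 4.85 in DMSO, 5.63 and 5.68 with aFGF, and 4.53 and 4.62 with AZD4547 and aFGF. Both aFGF arrays lay above all others and both AZD4547 arrays below all others, so that no groups overlapped. The mean was 4.87 ± 0.03 (SD, n = 2) in DMSO. It rose with aFGF to 5.65 ± 0.04 (SD, n = 2), a 1.72-fold change (log2 0.78, SE 0.08, 95% interval 0.61 to 0.96, adjusted p = 8.6e-05). With AZD4547 it fell to 4.58 ± 0.06 (SD, n = 2), 2.10-fold lower than with aFGF (log2 -1.07, SE 0.08, 95% interval -1.25 to -0.90, adjusted p = 3e-06). MERTK with AZD4547 stood below DMSO by a log2 difference of -0.29 (95% interval -0.46 to -0.11), which did not pass the test (adjusted p = 0.087). That p ranged from 0.029 to 0.41 over the alternatives tried and was under 0.05 without dim probe sets (0.047) and for the mean of each gene's probe sets (0.029). In bulk RNA, fewer cells with the transcript and less transcript per cell cannot be told apart.

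ERBB3 (12q13), which pairs with ERBB2 to recruit PI3K, has 3 probe sets. The brightest, 11721445_x_at, stood at 3.26 and 2.95 in DMSO, at 2.13 and 1.84 with aFGF, and at 3.27 and 3.39 with AZD4547 and aFGF. Both aFGF arrays lay below all others, and the AZD4547 arrays lay above both DMSO arrays by little. In DMSO the mean was 3.10 ± 0.22 (SD, n = 2). It fell with aFGF to 1.99 ± 0.21 (SD, n = 2), 2.17-fold lower (log2 -1.12, SE 0.15, 95% interval -1.44 to -0.79, adjusted p = 0.00055). With AZD4547 it was 3.33 ± 0.08 (SD, n = 2), 2.54-fold higher than with aFGF (log2 1.34, SE 0.15, 95% interval 1.02 to 1.67, adjusted p = 6.1e-05). Against DMSO the log2 difference was 0.22 (adjusted p = 0.53). The ending _x_at marks probes that may also bind other transcripts, and this probe set was dim in the aFGF group, which leaves the size of its change uncertain.

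The other ERBB3 probe sets were dim on all arrays and did not pass. 11734393_at stood at 2.05 and 2.13 in DMSO, 1.34 and 1.78 with aFGF, and 1.63 and 1.95 with AZD4547 and aFGF. Its log2 fold changes were -0.53 with aFGF (adjusted p = 0.072) and 0.23 with AZD4547 and aFGF against aFGF (adjusted p = 0.42). 11747025_a_at stood between 0.52 and 1.23 on the 6 arrays, with log2 fold changes of -0.41 (adjusted p = 0.14) and 0.26 (adjusted p = 0.30). Both had the signs of the brightest probe set in these comparisons. In the third comparison they had the opposite sign, with log2 differences of -0.30 and -0.14 (adjusted p = 0.45 and 0.74). The mean of the 3 probe sets still passed with aFGF (log2 -0.69) and with AZD4547 (log2 0.61).

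**Figure D2:**
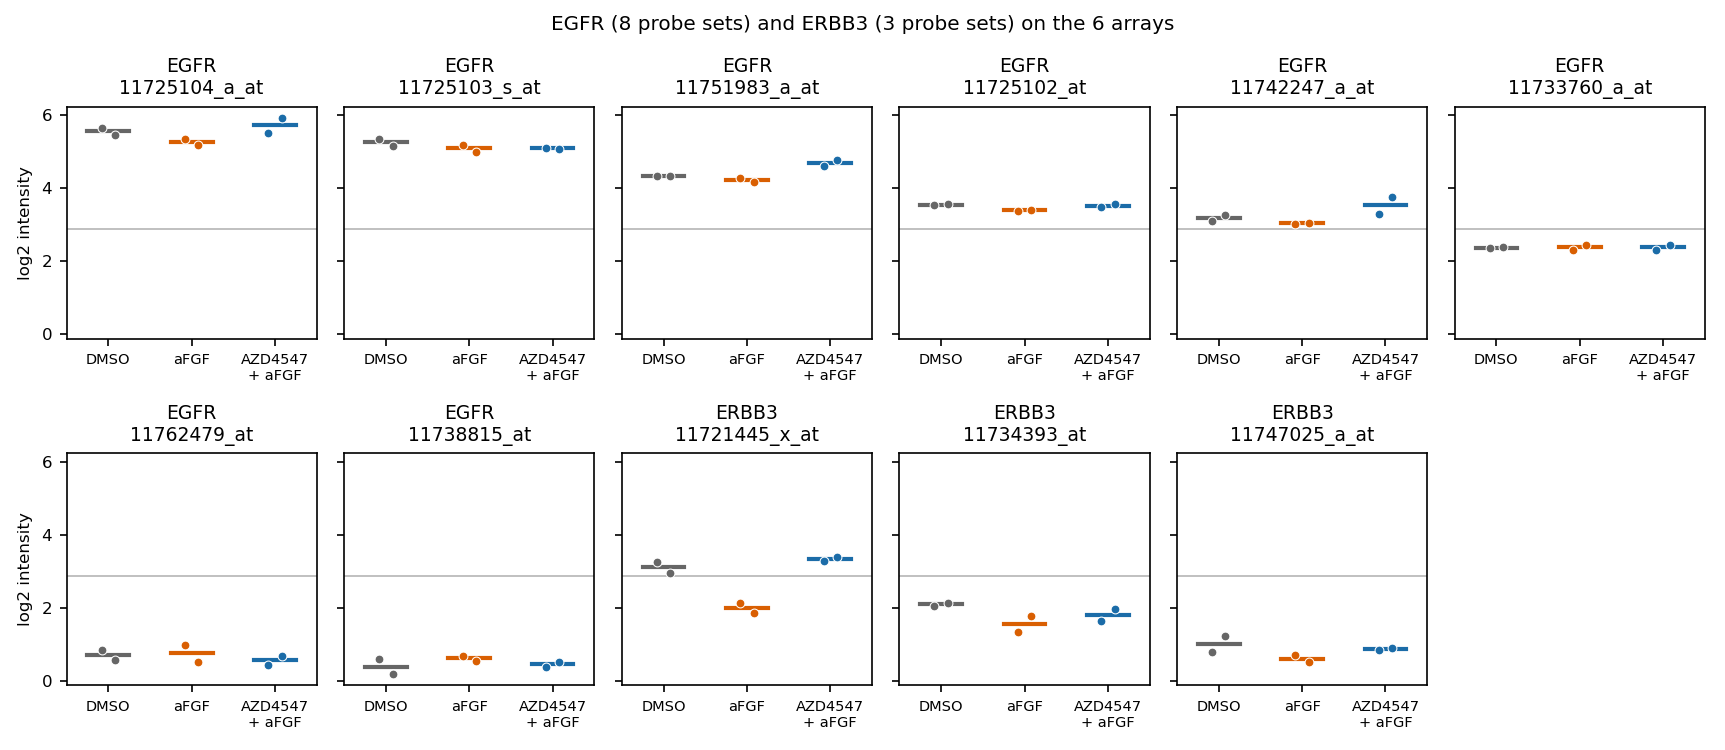
Log2 intensity (vertical axis) of the 8 probe sets of EGFR and the 3 of ERBB3 on the 2 arrays of each group, with points for arrays, short lines for group means and a grey band for the array medians. The called probe sets of EGFR are higher with AZD4547 and aFGF than with aFGF, and the bright 11725103_s_at is level across those groups.

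EGFR (7p12), the receptor of EGF and TGFA, was read by 8 probe sets that did not move alike. The brightest, 11725104_a_at, stood at 5.65 and 5.46 in DMSO, 5.34 and 5.18 with aFGF, and 5.50 and 5.93 with AZD4547 and aFGF. Both aFGF arrays lay below all others, while AZD4547 replicate 1 lay between the DMSO arrays and AZD4547 replicate 2 above both. AZD4547 with aFGF was 1.37-fold higher than aFGF (log2 0.46, SE 0.12, 95% interval 0.19 to 0.73, adjusted p = 0.021). The log2 difference of aFGF from DMSO, -0.30 (95% interval -0.57 to -0.03), did not pass (adjusted p = 0.17). The call was lost without either aFGF array or AZD4547 replicate 2, in fits that leave 1 array in a group. Leaving out 1 array gave log2 differences from 0.24 (without AZD4547 replicate 2) to 0.67 (without AZD4547 replicate 1). The adjusted p was 0.096 without the intensity trend in the fit.

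A second EGFR probe set, 11751983_a_at, stood at 4.34 and 4.32 in DMSO, 4.26 and 4.16 with aFGF, and 4.60 and 4.77 with AZD4547 and aFGF. Both AZD4547 arrays lay above all others, 1.39-fold higher than aFGF (log2 0.48, SE 0.10, adjusted p = 0.0035). The call was lost without aFGF replicate 2 and without AZD4547 replicate 2, in fits that leave 1 array in a group. Against DMSO the log2 difference of 11751983_a_at with AZD4547 and aFGF was 0.36, which did not pass (adjusted p = 0.076). Over the 8 EGFR probe sets this difference from DMSO ran from -0.16 to 0.36, with 5 positive and 0 called. The third called probe set, 11742247_a_at, was designed on a shorter EGFR transcript that codes for a secreted form. It stood at 3.10 and 3.27 in DMSO, 3.03 and 3.05 with aFGF, and 3.30 and 3.76 with AZD4547 and aFGF. The log2 difference of AZD4547 with aFGF from DMSO, 0.34, did not pass (adjusted p = 0.29). AZD4547 with aFGF was 1.40-fold higher than aFGF (log2 0.49, SE 0.15, adjusted p = 0.036). That call too was lost without either aFGF array, without AZD4547 replicate 2 and without the trend (adjusted p = 0.079 without the trend).

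The probe sets designed on the full-length EGFR transcript gave another value. The bright 11725103_s_at stood at 5.34 and 5.16 in DMSO, 5.18 and 4.999 with aFGF, and 5.11 and 5.08 with AZD4547 and aFGF. Its arrays overlapped between the aFGF and AZD4547 groups, with a log2 difference of 0.00 (95% interval -0.20 to 0.20, adjusted p = 0.99). The interval lies below the differences that the called EGFR probe sets showed. 11725102_at had a log2 difference of 0.13 (95% interval -0.10 to 0.36, adjusted p = 0.47). The remaining probe sets, 11733760_a_at, 11762479_at and 11738815_at, designed on other EGFR records, were dim on all arrays and not called. No difference between EGFR probe sets was itself tested. The mean of the 8 probe sets had a log2 difference of 0.15 (adjusted p = 0.30).

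ERBB2, the partner of the other ERBB receptors, is read by 5 probe sets, and the brightest, 11736472_a_at, stood at 5.30 and 5.39 in DMSO, 5.42 and 5.46 with aFGF, and 5.42 and 5.57 with AZD4547 and aFGF. The DMSO arrays lay lowest and the arrays of the other groups overlapped. Log2 differences were 0.09 with aFGF (95% interval -0.08 to 0.27, adjusted p = 0.58) and 0.06 with AZD4547 and aFGF against aFGF (95% interval -0.12 to 0.23, adjusted p = 0.72). Over the 5 probe sets these differences ran from -0.21 to 0.09 and from -0.07 to 0.19. ERBB4, a receptor of neuregulins, was dim, at 0.57 to 1.29 on the 6 arrays for its brightest probe set, with overlapping groups. Its log2 differences were -0.29 with aFGF (95% interval -0.70 to 0.12, adjusted p = 0.42) and 0.34 with AZD4547 and aFGF against aFGF (95% interval -0.07 to 0.75, adjusted p = 0.25).

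MET, the receptor of HGF, was dim on all 6 of its probe sets. The brightest, 11716407_a_at, stood at 1.57 and 1.84 in DMSO, 1.58 and 1.71 with aFGF, and 1.35 and 1.58 with AZD4547 and aFGF, with overlap between the groups. Log2 differences were -0.06 (95% interval -0.39 to 0.27, adjusted p = 0.89) and -0.18 (95% interval -0.51 to 0.15, adjusted p = 0.49). The probe set of MET nearest to a call, 11751246_a_at, had a log2 difference of 0.34 with AZD4547 and aFGF against aFGF (adjusted p = 0.076). AXL, a TAM receptor, was also dim. Its brighter probe set lay between 1.24 and 1.42 on the 6 arrays, the AZD4547 arrays just below those of aFGF. Log2 differences were 0.07 with aFGF (95% interval -0.23 to 0.37, adjusted p = 0.85) and -0.10 with AZD4547 and aFGF against aFGF (95% interval -0.40 to 0.20, adjusted p = 0.70).

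INSR, the insulin receptor, was among the brighter receptors, and 11740018_a_at stood at 4.57 and 4.41 in DMSO, 4.52 and 4.58 with aFGF, and 4.49 and 4.77 with AZD4547 and aFGF. The groups overlapped, with log2 differences of 0.06 (95% interval -0.17 to 0.29, adjusted p = 0.83) and 0.08 (95% interval -0.15 to 0.31, adjusted p = 0.69). IGF1R, the receptor of IGF1, was dim on 7 of 7 probe sets, and the brightest lay between 0.87 and 1.19. Its log2 differences were 0.04 (95% interval -0.26 to 0.35, adjusted p = 0.92) and 0.08 (95% interval -0.22 to 0.39, adjusted p = 0.76). IRS1, the adaptor that both receptors phosphorylate, was dim as well: 11743627_a_at stood at 2.56 and 2.71 in DMSO, 2.56 and 2.51 with aFGF, and 2.29 and 2.44 with AZD4547 and aFGF. The AZD4547 arrays lay below all others. The difference from DMSO, log2 -0.27 (95% interval -0.55 to 0.02), did not pass (adjusted p = 0.35). The other probe sets of IRS1 had values of -0.20 (adjusted p = 0.58) and -0.29 (adjusted p = 0.28), and in all 3 the DMSO and AZD4547 arrays did not overlap. Arrays of these groups did not overlap in 42.4% of all probe sets, and in 18 of the 43 here.

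**Figure D3:**
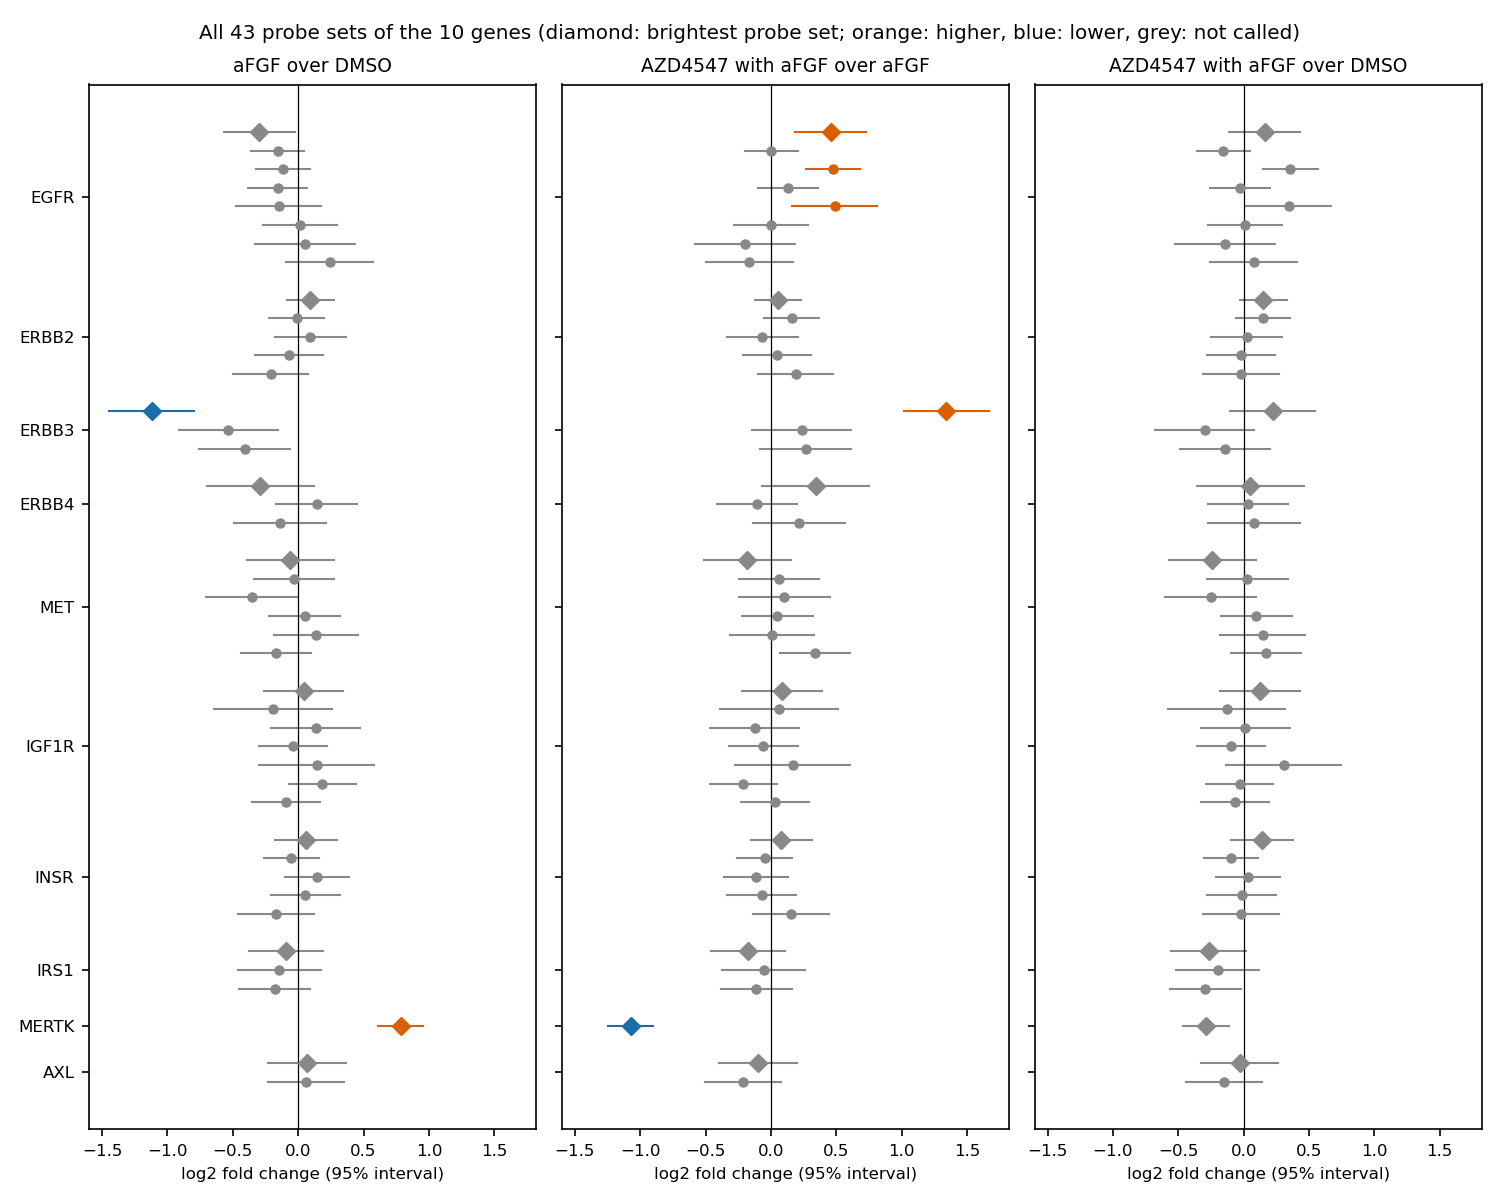
Log2 fold change (horizontal axis, with 95% intervals) of all 43 probe sets of the 10 genes in the 3 comparisons, by gene. Orange is higher, blue lower and grey not called, and diamonds are the brightest probe sets. Called probe sets belong to MERTK, ERBB3 and EGFR.

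Ligands of these receptors were mostly dim. Of 11 ERBB ligands, 9 were below the median level, 0 rose and 2 fell with aFGF, and with AZD4547 and aFGF against aFGF 3 rose and 1 fell (medians -0.01 and -0.09, against -0.01 and -0.02 over all genes). These calls were 18.2% and 36.4% of the ligands, against 13.6% and 23.9% of all genes. The 2 falls with aFGF, of NRG4 and NRG2, were both lost on leaving out any of 5 of the 6 arrays and without the trend, and NRG4 alone was called without DMSO replicate 2. NRG4, a ligand of ERBB4, stood at 2.88 and 2.38 in DMSO, 2.01 and 2.15 with aFGF, and 3.25 and 3.30 with AZD4547. It was 2.28-fold higher with AZD4547 and aFGF than with aFGF (log2 1.19, adjusted p = 0.00025), and its log2 difference between aFGF and DMSO was -0.55 (adjusted p = 0.048). EGF, a ligand of EGFR, stood at 2.62 and 2.60 in DMSO, 2.48 and 2.56 with aFGF, and 3.14 and 3.25 with AZD4547 (log2 0.67 against aFGF, adjusted p = 0.0017). NRG4 and EGF were dim in the aFGF group, so their fold changes are uncertain in size. HBEGF, another ligand of EGFR that cells shed from their surface, went the other way, and stood at 4.95 and 4.92 with aFGF and at 4.29 and 4.39 with AZD4547, 1.52-fold lower (log2 -0.60, adjusted p = 0.00033). The other probe set of HBEGF, at log2 -0.24, was not called. NRG2 fell with aFGF (log2 -0.38, adjusted p = 0.033) and was higher with AZD4547 (log2 0.52, adjusted p = 0.0034).

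Among proteins that shed, bind or carry ligands, ADAM17, the protease that sheds ERBB ligands, rose with aFGF by log2 0.54 (adjusted p = 0.00038) and was lower with AZD4547 by a log2 difference of -0.63 (adjusted p = 5e-05). IGFBP6, a binding protein that prefers IGF2, stood at 5.46 and 5.47 in DMSO, 6.70 and 6.69 with aFGF, and 5.43 and 5.46 with AZD4547. It rose 2.34-fold with aFGF (log2 1.23, adjusted p = 5.1e-07) and was 2.38-fold lower with AZD4547 (log2 -1.25, adjusted p = 2.5e-07), without overlap of the aFGF arrays and the others. In the insulin and IGF axis 16 of 18 genes were measured. With aFGF, 1 rose and 1 fell, and with AZD4547 1 rose and 3 fell (medians 0.07 and -0.09). The calls were 12.5% and 25% of the axis, against 13.6% and 23.9% of all genes. Without either aFGF array, 1 gene was called with aFGF in place of 2, and 2 with AZD4547 in place of 4. The members of the axis that moved are binding proteins and IGF2R, the receptor that carries IGF2 to lysosomes. IGFBP2 fell with aFGF (log2 -0.26) and was higher with AZD4547 (log2 0.24). IGFBP3 and IGF2R were lower with AZD4547 (log2 -0.48 and -0.36). For IGFBP3 this was called on 1 of 2 probe sets, a dim one with the ending _x_at, and for IGF2R on 1 of 3. Of 10 genes of the HGF and MET axis, 10% were called with aFGF and 0% with AZD4547, against 13.6% and 23.9% of all genes. The 1 call was the fall of PLXNB1 with aFGF (log2 -0.42, adjusted p = 0.036). That call was lost on leaving out any of the 6 arrays, without the trend and for the mean of the gene's probe sets.

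In the TAM axis, PROS1, a ligand of MERTK, had changes of the opposite sign to those of its receptor on all 3 probe sets. Only 1 of the 3 was called. The brightest stood at 7.01 and 6.72 in DMSO, 6.40 and 6.40 with aFGF, and 6.86 and 6.91 with AZD4547. It fell with aFGF by a log2 difference of -0.47 (adjusted p = 0.0041) and was higher with AZD4547 by 0.49 (adjusted p = 0.0014). The aFGF arrays lay below all others. Over the 3 probe sets these differences ran from -0.47 to -0.15 and from 0.19 to 0.49, and the fall was not called without either aFGF array or without the trend. TYRO3, the third TAM receptor, was higher with AZD4547 by log2 0.32 (adjusted p = 0.011), a call lost on leaving out any aFGF or AZD4547 array. Its log2 value with aFGF was -0.20 (adjusted p = 0.14). GAS6, the ligand shared by the TAM receptors, had values of 0.23 (adjusted p = 0.34) and -0.11 (adjusted p = 0.64). The list of 8 TAM axis genes leaves out MERTK and AXL. Of these 8, ADAM17 rose and PROS1 fell with aFGF, and with AZD4547 PROS1 and TYRO3 rose and ADAM17 fell. The calls were 25% and 37.5% of the list, against 13.6% and 23.9% of all genes.

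**Figure D4:**
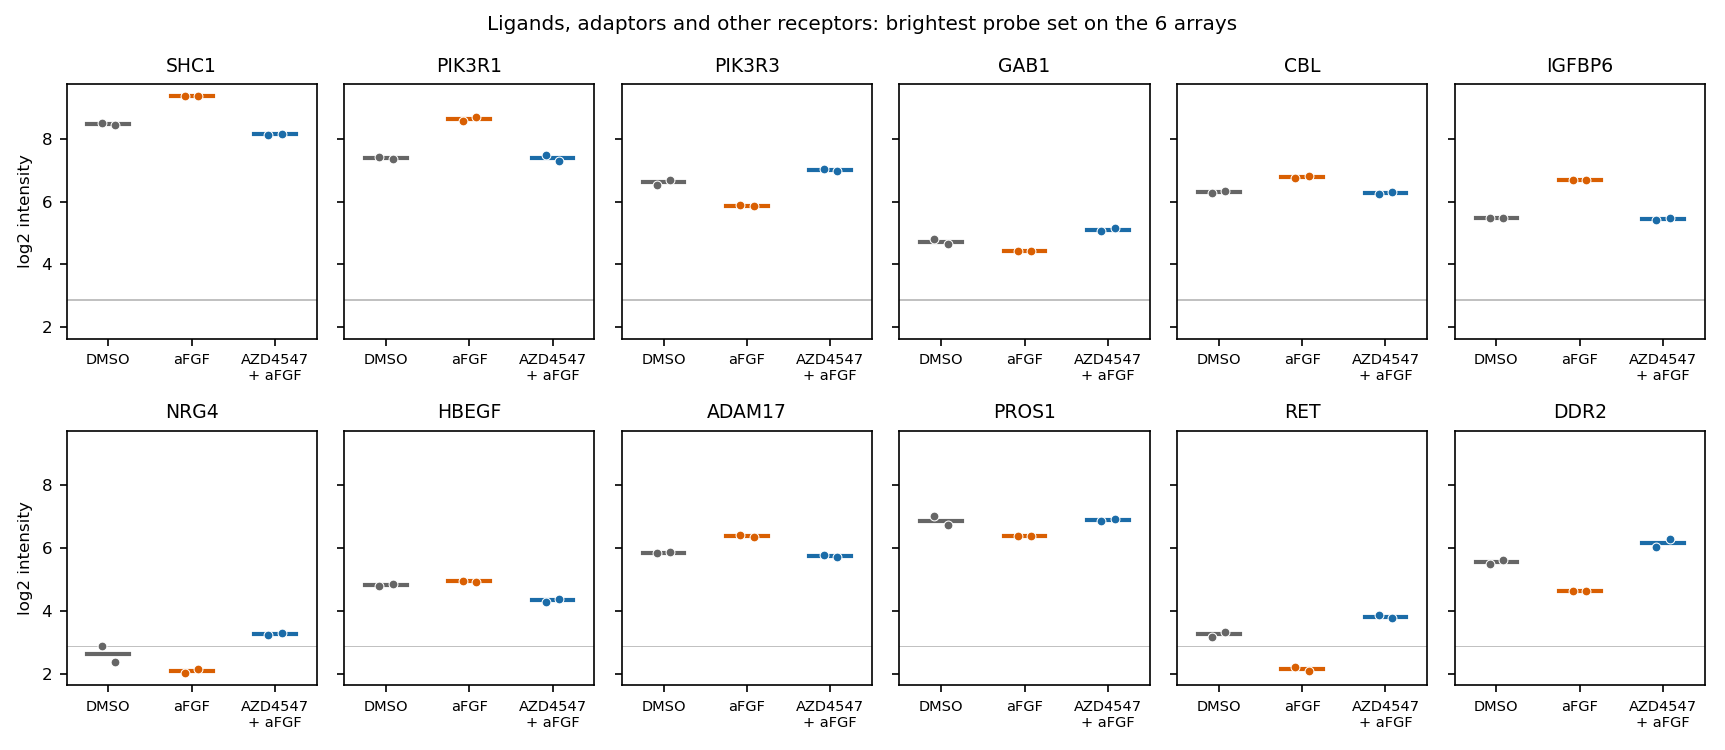
Log2 intensity (vertical axis) of the brightest probe set of ligands, adaptors and other receptor kinases on the 2 arrays of each group, with points for arrays, short lines for group means and a grey band for the array medians. PIK3R1, SHC1 and IGFBP6 are highest with aFGF and DDR2 and RET are lowest there, each without overlap.

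Of 25 measured adaptors and PI3K pathway genes that these receptors share, 3 rose and 7 fell with aFGF, and 11 rose and 3 fell with AZD4547 and aFGF against aFGF (medians -0.08 and 0.21). These are 40% and 56% of the list, against 13.6% and 23.9% of all genes, and 4 of the 25 were below the median level. Of all probe sets above that level 21.1% and 37.0% were called, and of those below it 1.81% and 4.26%. The list was not set against genes of its own level. Leaving out 1 array, the fewest calls were 5 with aFGF (without aFGF replicate 2) and 8 with AZD4547 (without aFGF replicate 1 or AZD4547 replicate 2). PIK3R1, the main regulatory subunit of PI3K, stood at 7.41 and 7.34 in DMSO, 8.57 and 8.70 with aFGF, and 7.49 and 7.29 with AZD4547. It rose 2.39-fold with aFGF (log2 1.26, adjusted p = 1e-06) and was 2.37-fold lower with AZD4547 (log2 -1.24, adjusted p = 5.7e-07). All 8 of its probe sets passed in both directions. SHC1, an adaptor that links receptors to RAS, stood at 8.51 and 8.42, at 9.36 and 9.36, and at 8.12 and 8.15 in the same order, 1.85-fold higher with aFGF (adjusted p = 1.1e-06) and 2.33-fold lower with AZD4547 (adjusted p = 4.3e-08). PIK3R3, another regulatory subunit, went the other way, from 6.53 and 6.70 in DMSO to 5.88 and 5.86 with aFGF, and to 7.03 and 6.97 with AZD4547 (log2 -0.75 and 1.13, adjusted p = 6.3e-05 and 1.1e-06). GAB1, a docking protein of MET and EGFR, was 1.60-fold higher with AZD4547 (log2 0.68, adjusted p = 0.0002) and had a log2 value of -0.30 with aFGF (adjusted p = 0.051). These are values of its brightest probe set. Of its 8 probe sets, 3 were called lower with aFGF and 5 higher with AZD4547. Over the 8, log2 differences ran from -0.65 to 0.32 and from -0.07 to 0.94.

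Of 14 genes of ERBB and MET feedback and receptor turnover, 3 rose and 0 fell with aFGF, and 1 rose and 2 fell with AZD4547. This is 21.4% of the list in both, against 13.6% and 23.9% of all genes. Without either aFGF array or without the trend 1 gene was called with aFGF, and leaving out 1 array gave 1 to 5 calls with AZD4547 (1 without aFGF replicate 2 or AZD4547 replicate 1, 5 without either DMSO array). CBL, the ubiquitin ligase that sends receptors to degradation, rose with aFGF by log2 0.48 (adjusted p = 0.00074) and was lower with AZD4547 by -0.50 (adjusted p = 0.00023). ERRFI1, which binds and inhibits EGFR and ERBB2, rose by log2 0.28 (adjusted p = 0.014) and was lower with AZD4547 by -0.26 (adjusted p = 0.012). The rise with AZD4547 was that of CBLB (log2 0.73, adjusted p = 0.0026), whose probe sets ran from -0.56 to 0.80. SOCS5 rose with aFGF by log2 0.32 (adjusted p = 0.035). The calls of ERRFI1 and SOCS5 with aFGF were lost without either aFGF array, and that of CBLB without aFGF replicate 2 or AZD4547 replicate 1.

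A list of 45 other receptor tyrosine kinases also held relatives of these receptors, among them MST1R, INSRR and TYRO3, and 28 of the 45 were below the median level. With aFGF 1 rose and 6 fell, and with AZD4547 and aFGF 7 rose, TYRO3 among them, and 1 fell (medians -0.03 and 0.01). These are 15.6% and 17.8% of the list, against 13.6% and 23.9% of all genes. Without either aFGF array, or without the trend, 2 genes were called with aFGF in place of 7. RET, a receptor of GDNF family ligands, stood at 3.16 and 3.34 in DMSO, 2.20 and 2.09 with aFGF, and 3.86 and 3.76 with AZD4547, 2.15-fold lower with aFGF (log2 -1.11, adjusted p = 0.00015) and 3.18-fold higher with AZD4547 (log2 1.67, adjusted p = 2.5e-06). This was so for 1 of its 3 probe sets, which was dim with aFGF. DDR2, a collagen receptor, stood at 5.51 and 5.63, at 4.62 and 4.62, and at 6.03 and 6.28, with a fall of log2 -0.94 (adjusted p = 6e-05) and a rise of 1.53 (adjusted p = 5.8e-07), in 4 of 5 probe sets. EPHB3, a receptor of ephrins, had a log2 value of -0.40 with aFGF (adjusted p = 0.037), a call lost on leaving out any array but DMSO replicate 2. EPHA2, another ephrin receptor, had the opposite order, from 4.61 and 4.51 to 4.93 and 4.93, and to 4.12 and 4.10 (log2 0.37 and -0.82, adjusted p = 0.017 and 4.1e-05). Of its 2 probe sets 1 was called in each of these comparisons, and the other had log2 differences of 0.13 and -0.35.

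Between AZD4547 with aFGF and DMSO, 8 genes of the lists differed, and 0 were called without the intensity trend. The 8 were 2 of 11 ERBB ligands (18.2%), 3 of 25 adaptors and PI3K pathway genes (12%) and 3 of 45 other receptor kinases (6.67%). Of all genes 3.18% were called, and the remaining lists had 0 calls. SHC1 (log2 -0.33, adjusted p = 0.0098), HBEGF (-0.48, 0.015) and EPHA2 (-0.45, 0.021) were lower. PIK3R3 (0.38, 0.021), GAB1 (0.38, 0.049), EGF (0.58, 0.030), RET (0.56, 0.036) and DDR2 (0.59, 0.0083) were higher. Each of these calls was lost when either AZD4547 array was left out.

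For MERTK and ERBB3 the genes with the most similar course over the 6 arrays were sought, as a description, among genes above the median level whose SD over the arrays was at least 0.3. For MERTK these were GBE1 (Pearson r = 0.999), SHC1 (r = 0.998) and EIF3J (r = 0.998), and for ERBB3 they were TCF19 (r = 0.997), THYN1 (r = 0.995) and TNRC6C (r = 0.993). The 6 arrays form 3 groups, and 210 genes reached r = 0.95 with MERTK and 260 with ERBB3, so that many genes share either course.

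In the authors' deposited table, which gives ratios over DMSO with p-values of an unnamed test, MERTK had a ratio of 1.72 with aFGF (p = 0.00156) and 0.818 with AZD4547 and aFGF (p = 0.0513). In the authors' deposited table ERBB3 11721445_x_at had ratios of 0.460 (p = 0.0246) and 1.16 (p = 0.334). By the authors' deposited table, p was below 0.05 for 3 of the 43 probe sets with aFGF (13.8% of all) and for 1 with AZD4547 and aFGF (8.73%).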

How the data were processed

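Total RNA of AN3-CA cells was labelled and hybridised to 6 Affymetrix arrays, and the authors deposited intensity values per probe set on a linear scale, made with RMA per the submitters' processing notes. No source used here states the array type or the build. The authors' deposited table also holds a ratio and a p-value per probe set. Intensities were converted to log2 without a pseudocount. The design had assumed log2 values. Of 49293 probe sets, 47340 carried 1 symbol, and each gene was represented by its brightest one. The fit was limma 3.58.1 in R 4.3.3 with 3 group means and an intensity trend, two-sided, with Benjamini-Hochberg adjustment over all probe sets or all genes and a threshold of 0.05. The number of arrays limits the precision: standard errors of log2 differences had a median of 0.125. The fit was tested on simulated data.

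The receptors, lists and tests were chosen with earlier results of these data known. The text names the receptors and, per list and comparison, up to 3 called genes with the largest changes, plus GAS6, named after its values were seen. It also names the 3 genes whose course was most like that of each receptor called in both of the first comparisons. Samples were grouped by their labels. Same-numbered samples did not deviate together (correlations of 0.061, 0.102 and -0.073), so the numbers were not used as a block. The alternatives were leaving out each replicate, no trend, no dim probe sets, the mean of a gene's probe sets, a fit over genes, median centring, quantile normalization, a pseudocount of 8, the series matrix values and the replicate block.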

Additional observations from a re-analysis of the deposited data

How the results depend on the processing

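The calls of MERTK and ERBB3 for aFGF over DMSO and AZD4547 with aFGF over aFGF held under every alternative that tested them. MERTK ranged from 0.65 to 0.81 for aFGF over DMSO and from -1.12 to -0.87 for AZD4547 with aFGF over aFGF, and ERBB3 from -1.27 to -0.47 and from 0.59 to 1.49. Without dim probe sets ERBB3 was not tested. With the replicate block, 3, 5 and 0 of the 43 probe sets were called in the 3 comparisons, where 2, 5 and 0 had been. Leaving out 1 array gave 2 to 5 called probe sets for AZD4547 with aFGF over aFGF, and the fit without the trend gave 3. Leaving out dim probe sets kept 14 of the 43. Of these, 1 probe set and 1 gene were called for aFGF over DMSO, and 2 probe sets and 1 gene for AZD4547 with aFGF over DMSO. In the latter comparison the mean of a gene's probe sets also gave 1 gene. The share of all probe sets called was not taken for these alternatives, so the counts cannot be set against it. Signs turned only for log2 fold changes that were not called. Leaving out 1 array gave, for aFGF over DMSO, -0.024 to 0.16 (AXL), -0.026 to 0.11 (IGF1R), -0.018 to 0.14 (INSR) and -0.20 to 0.079 (MET). For AZD4547 with aFGF over aFGF it gave -0.021 to 0.13 (ERBB2), -0.038 to 0.21 (IGF1R) and -0.057 to 0.22 (INSR). For AZD4547 with aFGF over DMSO it gave -0.12 to 0.061 (AXL), -0.054 to 0.37 (EGFR) and -0.18 to 0.28 (ERBB4). The mean of a gene's probe sets gave -0.021 for ERBB2 (aFGF over DMSO), -0.073 for ERBB3 (AZD4547 with aFGF over DMSO), and -0.0078 for IGF1R and 0.063 for MET (AZD4547 with aFGF over aFGF). The cause of these changes was not tested. Low signal limits ERBB4, MET, IGF1R, IRS1 and AXL.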
